A study of Mus musculus with 2 samples.

Results

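The 10 genes described here encode 5 inhibitory receptors of T cells (Pdcd1, Havcr2, Lag3, Tigit and Ctla4) and 5 products of killer lymphocytes (Gzmb, Gzma, Prf1, Ifng and Nkg7). They were taken by symbol from the 32285 genes of the count matrix, and all 10 were found. Their transcripts were followed in a single-cell RNA sequencing library of KPCA.FSTKO omental tumors, first in lymphocytes and then in every other cell class. Lymphocytes were picked with genes outside the set of 10. A cell entered this lymphocyte gate with at least 3 UMIs (unique molecular identifiers, each standing for 1 captured mRNA molecule) over the T cell receptor genes Cd3e, Cd3d, Cd3g, Trac and Trbc2 together and at least 1 UMI of Ptprc, the pan-leukocyte gene for CD45.

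KPCA is a mouse line of fallopian tube epithelial origin that models high-grade serous ovarian carcinoma. Its engineered changes include Trp53 R172H and overexpression of Ccne1 and Akt2, and KPCA.FSTKO lacks Fst, the gene for the activin antagonist follistatin, as does KPCA.FSTKO_hFSTL3, a single geneticin-selected clone made from it that also carries a human FSTL3 expression plasmid. Cells were injected into the peritoneum of female C57BL/6J mice aged 12 to 16 weeks, which keep their own immune system, and omental tumors were dissociated on day 10, 4 tumors being pooled for each genotype into 1 library. With 1 library per genotype no difference between genotypes could be tested, and every interval given is a 95% interval that covers counting error only.

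Inhibitory receptors, or immune checkpoints, appear on T cells after activation and limit signaling through the T cell receptor, and several of them tend to accumulate on the same cell when antigen persists. Killer lymphocytes store perforin and granzymes in granules: perforin opens the target membrane and granzymes, which are serine proteases, enter through it. In tumors the checkpoint receptors are the targets of blocking antibodies, and the granule genes mark cytotoxic T cells and natural killer (NK) cells.

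The 5 receptor genes lie apart in the mouse genome (GRCm38). Pdcd1 (ENSMUSG00000026285), which encodes PD-1, covers chr1:94038305-94052553 on the minus strand. Havcr2 (ENSMUSG00000020399), which encodes TIM-3, covers chr11:46454935-46481255 on the plus strand. Lag3 (ENSMUSG00000030124), the gene for an MHC class II binding receptor, covers chr6:124904361-124911705 on the minus strand. Tigit (ENSMUSG00000071552), which encodes a receptor for nectin-like ligands, covers chr16:43648867-43664146 on the minus strand. Ctla4 (ENSMUSG00000026011), which encodes the receptor that competes with CD28 for CD80 and CD86, covers chr1:60887000-60915832 on the plus strand. The Ctla4 gene model spans 28833 bases, of which 2330 are exonic, begins 22025 bases upstream of the RefSeq start site, and contains the pseudogene Rpl18-ps1 on the same strand.

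Of the effector genes, Gzmb (ENSMUSG00000015437), which encodes granzyme B, covers chr14:56258838-56262260 on the minus strand, beside related granzyme genes. Whether any reads were shared between Gzmb and these genes was not tested. Gzma (ENSMUSG00000023132), which encodes granzyme A, covers chr13:113093825-113100981 on the minus strand. Prf1 (ENSMUSG00000037202), which encodes perforin, covers chr10:61297833-61304680 on the plus strand, and Ifng (ENSMUSG00000055170), which encodes the cytokine interferon gamma, covers chr10:118441046-118445892 on the plus strand and overlaps the unclassified same-strand model Gm49751. Nkg7 (ENSMUSG00000004612), which encodes a granule membrane protein of cytotoxic cells, covers chr7:43437073-43438249 on the plus strand. Apart from those of Ctla4 and Ifng, none of these gene models overlapped another gene in the annotation used (GENCODE vM21).

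The promoters of Gzmb, Prf1, Nkg7 and Havcr2 are shown because their transcripts were often detected in the same CD8 T cells, and because Havcr2 was also found widely outside lymphocytes. Each sequence runs 5′ to 3′ on the gene's own strand, from 250 bases before to 50 bases after the RefSeq start site (GRCm38.p6), and capitals mark matches, on either strand, to the letters of 5 binding motifs spelled out after the sequences. The windows are chr14:56262285-56262584 (minus strand) for Gzmb, chr10:61297586-61297885 (plus) for Prf1, chr7:43436888-43437187 (plus) for Nkg7 and chr11:46454681-46454980 (plus) for Havcr2.
Gzmb: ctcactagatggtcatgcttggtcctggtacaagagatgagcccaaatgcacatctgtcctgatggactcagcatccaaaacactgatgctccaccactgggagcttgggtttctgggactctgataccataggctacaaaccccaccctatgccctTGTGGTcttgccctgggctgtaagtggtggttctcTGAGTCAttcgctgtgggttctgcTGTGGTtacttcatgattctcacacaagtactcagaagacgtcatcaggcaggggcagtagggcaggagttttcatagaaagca
Prf1: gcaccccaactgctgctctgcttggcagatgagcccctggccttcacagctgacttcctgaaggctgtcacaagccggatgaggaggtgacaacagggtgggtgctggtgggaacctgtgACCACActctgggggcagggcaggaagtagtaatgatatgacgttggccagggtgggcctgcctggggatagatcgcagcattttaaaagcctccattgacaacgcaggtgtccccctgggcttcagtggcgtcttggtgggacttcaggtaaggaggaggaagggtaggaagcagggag
Nkg7: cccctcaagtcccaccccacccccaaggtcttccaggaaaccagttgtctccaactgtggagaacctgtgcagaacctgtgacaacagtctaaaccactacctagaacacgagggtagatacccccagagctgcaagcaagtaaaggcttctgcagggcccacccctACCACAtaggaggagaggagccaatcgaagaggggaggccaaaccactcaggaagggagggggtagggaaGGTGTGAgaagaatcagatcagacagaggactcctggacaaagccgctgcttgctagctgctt
Havcr2: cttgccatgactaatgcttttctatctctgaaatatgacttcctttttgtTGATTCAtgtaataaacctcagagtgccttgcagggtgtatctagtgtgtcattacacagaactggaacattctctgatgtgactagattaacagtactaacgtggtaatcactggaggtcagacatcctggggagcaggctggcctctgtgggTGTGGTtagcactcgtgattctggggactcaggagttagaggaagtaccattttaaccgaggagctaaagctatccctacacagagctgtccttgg
The RUNX motif (TGTGGT) was present in the windows of 6 of the 9 genes with an entry in the promoter table, which were Havcr2, Tigit, Gzmb, Gzma, Prf1 and Nkg7, against 16.8% of all 32851 windows. The Gzmb window held them in 2 places on the gene's strand, and Prf1 and Nkg7 held them once each on the opposite strand. The AP-1 motif (TGANTCA) was in the Gzmb and Havcr2 windows and in 7.81% of all windows. The T-box motif (GGTGTGA) was in the window of Nkg7 alone among the 9 genes and in 3.98% of all windows. The NFAT motif (TGGAAA) was in those of Ctla4 and Gzma and in 21.4% of all windows. The TATA motif (TATAAA) was in those of Ctla4 and Ifng and in 13.6% of all windows. Matches that overlapped were each counted, and a match of letters is a description and not a binding site.

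The KPCA.FSTKO matrix held 7582 barcodes and 168214773 UMIs, with a median of 16368 UMIs per barcode, and that of KPCA.FSTKO_hFSTL3 held 4244 barcodes and 80391504 UMIs, with a median of 15122.5. After the filters of the study (mitochondrial share under 20%, more than 200 and fewer than 8000 genes) 6777 and 4041 cells remained. The KPCA.FSTKO_hFSTL3 library stood apart in that 3493 of its cells lay in clusters that mixed pancreatic acinar genes with those of other types, and its median mitochondrial share was 10.7% against 3.71%. The 2 libraries shared 12 barcodes, none of them a gate cell of KPCA.FSTKO. Fst itself gave 603 UMIs in 3977 KPCA.FSTKO cancer-like cells (2 gate cells included) and 935 in 440 stromal-like cells, a 3′ count that need not cover the edited part of the gene.

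The gate held 79 KPCA.FSTKO cells, 1.17% of those past the filters (0.924 to 1.45%). Their median was 4930 UMIs (2209 to 55292), well below that of the library. Of the 79 cells, 73 fell in the cluster whose leading genes included Nkg7, Themis and Cd3g, in which all 15 T cell markers used for naming were raised. Those markers include the 5 T cell receptor genes of the gate, and Nkg7 is 1 of the 10 genes. Part of this agreement therefore follows from how the cells were picked, though markers outside the gate, such as Cd2, Cd28 and Lck, were raised too. Another 4 gate cells fell in the dendritic-like cluster and 2 in cancer-like clusters, and Scrublet called 3 of these 6 doublets (2 cell types under 1 barcode). The B cell gene Cd79a was at 0 in the gate, the macrophage gene C1qa gave 54 UMIs in 15 cells, and the keratin gene Krt18 gave 183 UMIs in 34 cells, 100 of them in 1 doublet. At the edge of the gate, 5 cells had exactly 3 T cell receptor UMIs, 4 of them with a UMI of any of the 10 genes, and 5 cells with 2 such UMIs were left outside, 3 of them with any of the 10.

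All 5 checkpoint receptors were detected in the gate, each in between 18 and 60 of the 79 cells. Pdcd1 gave 128 UMIs in 46 cells (58.2%, 46.6 to 69.2%), with a median of 2 and a highest value of 16 UMIs in the positive cells. Ctla4 gave 384 UMIs in 60 cells (75.9%, 65.0 to 84.9%), with a median of 4 and a highest value of 26. Lag3 gave 40 UMIs in 24 cells (30.4%, 20.5 to 41.8%) and at most 5 in a cell. Most positive cells held only a few molecules, so a cell with 0 UMIs cannot be taken as negative. Havcr2 gave 64 UMIs in 22 cells (27.8%, 18.3 to 39.1%) and at most 11 in a cell. Tigit gave 27 UMIs in 18 cells (22.8%, 14.1 to 33.6%) and at most 4 in a cell. Among the 3975 cancer-like cells, a class that should lack T cell genes and had a median of 27028 UMIs, a UMI was found in 0.0755% of cells for Pdcd1, 0.730% for Lag3, 1.64% for Tigit, 8.96% for Ctla4 and 32.3% for Havcr2. The last 2 genes are taken up again with the other cell classes.

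Among the effector genes Nkg7 was detected most widely and Gzma hardly at all. Nkg7 gave 422 UMIs in 49 cells (62.0%, 50.4 to 72.7%), with a median of 6 and a highest value of 78 UMIs in positive cells. Gzmb gave 148 UMIs in 20 cells (25.3%, 16.2 to 36.4%), of which 54, or 36.5%, came from a single cell. Prf1 gave 80 UMIs, also in 20 cells, and at most 14 in a cell. Single cells weighed heavily on the sums of the rarer transcripts. Ifng gave 40 UMIs in 14 cells (17.7%, 10.0 to 27.9%), 22 of them (55.0%) in 1 cell. Gzma gave 11 UMIs in 4 cells, 5 of them in a barcode called a doublet. No UMI of Gzmb, Prf1 or Ifng was found in the 3975 cancer-like cells, and Nkg7 had one in 0.101% of them.

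Summed over cells and given as UMIs per 1000000 UMIs of the same cells (CPM), 9 of the 10 genes were at least 4 times higher in the gate than in all other KPCA.FSTKO cells, where 9.03% of the 19146 genes with 10 or more UMIs passed that fold. The median ratio was 885 over the 10 genes, with Gzma and Ifng, which had fewer than 3 UMIs outside, set at a floor of 3 counts, and 0.783 over all genes tested. The gate level of Pdcd1 was 190 CPM against 0.191 outside, a 998-fold difference (655 to 1573), and that of Nkg7 was 628 against 0.346, an 1813-fold difference (1347 to 2490). Prf1 was 2807-fold (1235 to 7877) and Gzmb 1484-fold (936 to 2468) higher in the gate. Ifng had 0 UMIs in the 6698 cells outside, which by a count of 3 allows up to 0.0448% of cells. Against a floor of 3 counts summed over those cells its ratio was 2807. The lower 95% bound from the 0 counts themselves was 2179. Ctla4 was 139-fold (122 to 158), Lag3 92.5-fold (62.2 to 136) and Tigit 80.1-fold (49.4 to 126) higher. Gzma, with 11 UMIs inside and 2 outside, had a ratio of 1158 (253 to 10751), or 772 against the floor. Havcr2 was the gene that did not reach 4-fold, at 3.75-fold (2.88 to 4.80), though all 10 genes reached it with a gate of 5 T cell receptor UMIs or with gate cells of the T-like cluster alone.

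The gate, 1.17% of the cells, held 672022 of the 142160061 UMIs past the filters. For 6 of the 10 genes it held most of the library's UMIs. How many of all genes reach that share was not counted, so the 6 have no background to be read against. It held all 40 UMIs of Ifng, 80 of the 86 of Prf1, 89.6% of those of Nkg7, 87.6% of Gzmb, 84.6% of Gzma and 82.6% of Pdcd1. For the other receptors it held 39.8% of the UMIs of Ctla4, 30.5% of Lag3, 27.6% of Tigit and 1.75% of Havcr2. Summed over the 10 genes, 23.2% (22.2 to 24.3%) of the UMIs were in the gate.

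The 10 genes were detected in overlapping sets of cells. At least 1 of them was found in 73 of the 79 gate cells (92.4%, 84.2 to 97.2%) and at least 2 in 64 (81.0%, 70.6 to 89.0%). The most frequent number was 3, in 19 cells, but a second group stood at 7 genes, in 11 cells, with only 3 cells at 5 genes and 2 cells at 6. The 15 cells with 7 or more genes had 13 cells with a UMI of Cd8a or Cd8b1, the genes of the CD8 coreceptor of cytotoxic T cells, 1 cell with a UMI of Cd4 and 1 doublet. The 11 cells with 7 genes also had a median of 14341 UMIs, about 3 times that of the gate. Depth moved with the number of genes detected. With every gate cell thinned to 2000 UMIs, 84.8% kept at least 1 gene, 67.1% at least 2 and 5.06% at least 5, and none kept 7.

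**Figure D1:**
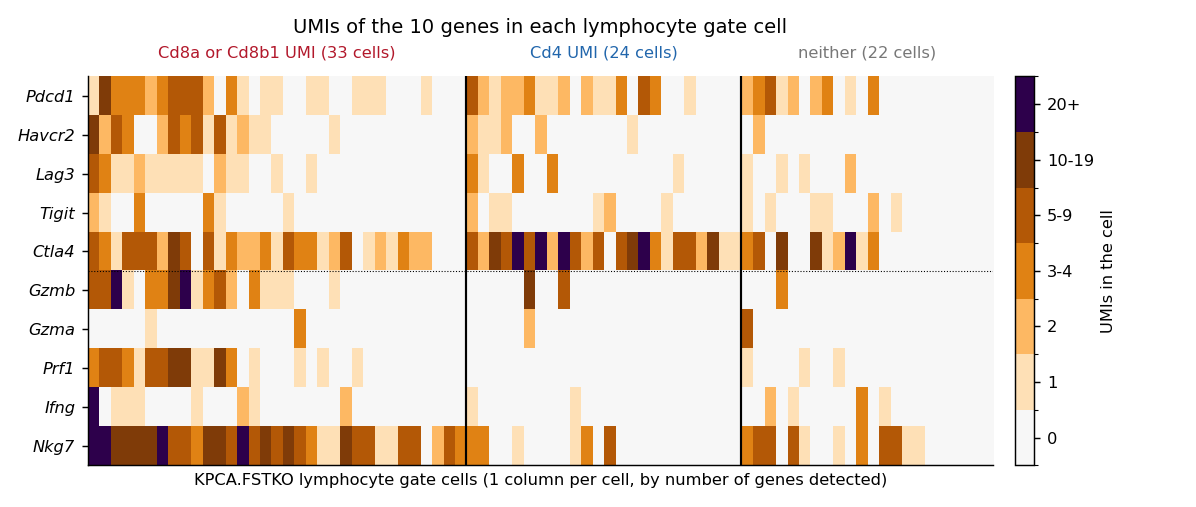
UMIs of the 10 genes (rows, receptors above the dotted line and effectors below) in each of the 79 KPCA.FSTKO gate cells (columns), split by detection of Cd8a or Cd8b1 (33 cells), Cd4 (24 cells) or neither (22 cells) and ordered in each block by the number of genes detected. Nkg7, Prf1 and Gzmb fill the left of the Cd8 block, Ctla4 runs through the Cd8 and Cd4 blocks, and Gzma is nearly empty.

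The pairs found in the most gate cells were Pdcd1 with Ctla4 (41 cells), Ctla4 with Nkg7 (36 cells) and Pdcd1 with Nkg7 (29 cells), which are also the 3 most widely detected genes. Nkg7 was found in 63.0% of cells with Pdcd1 and in 60.6% of those without it, while other pairs, chosen after their values were seen, were uneven. Gzmb was found in 14 of 22 cells with Havcr2 (63.6%, 40.7 to 82.8%) and in 6 of 57 without it (10.5%, 3.96 to 21.5%). Prf1 was found in 14 of 24 cells with Lag3 (58.3%, 36.6 to 77.9%) and in 6 of 55 without it (10.9%, 4.11 to 22.2%). Gzmb and Prf1 themselves were detected together in 13 cells, which is 65.0% of the 20 cells positive for each. For Tigit the shares lay within their counting error, with Gzmb in 5 of 18 Tigit-positive cells (27.8%, 9.69 to 53.5%) and in 15 of 61 others (24.6%, 14.5 to 37.3%). All 20 Prf1-positive and all 14 Ifng-positive cells had a UMI of Nkg7, and none of the 30 cells without Nkg7 had either. Ctla4 was found in 41 of 46 cells with Pdcd1 (89.1%, 76.4 to 96.4%) and in 19 of 33 without it (57.6%, 39.2 to 74.5%).

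Positive cells were deeper than negative cells for each of the 10 genes, and this moved with each of these pairs. The median depth was 10673.5 UMIs in cells with Havcr2 and 4461 in those without, and 5496.5 against 4380 for Pdcd1. Among the 40 cells at or above the gate's median depth, Gzmb was still found in 13 of 20 cells with Havcr2 and in 3 of 20 without, and Prf1 in 13 of 18 cells with Lag3 and in 2 of 22 without. Once all cells were thinned to 2000 UMIs, the difference turned direction for 13 of the 45 pairs of genes. Prf1 was then in 1 of 10 cells that kept Lag3 and in 10 of 69 others, and Gzmb in 2 of 10 cells that kept Havcr2 and in 11 of 69 others. Nkg7 was in 8 of 11 cells that kept Prf1 and in 28 of 68 others. At equal depth too few cells kept the rarer genes for most pairs to be followed. The part of depth in the uneven pairs cannot be told apart. Of the cells with Havcr2, 15 had a Cd8a or Cd8b1 UMI, 6 had a Cd4 UMI and 1 had neither. For Gzmb these numbers were 17, 2 and 1. The part of this coreceptor make-up in the uneven pairs was not tested.

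Splitting the gate by coreceptor showed higher Nkg7, Prf1 and Gzmb in Cd8 cells and higher Ctla4 in Cd4 cells. There were 33 cells with a Cd8a or Cd8b1 UMI (median depth 6044 UMIs) and 24 with a Cd4 UMI (5093.5), no cell had both, and 22 had neither. A checkpoint gene together with an effector gene was found in 29 of the 33 Cd8 cells (87.9%, 71.8 to 96.6%) and in 8 of the 24 Cd4 cells (33.3%, 15.6 to 55.3%), while receptors without any effector gene were found in 1 and 16 cells. The median number of the 10 genes detected was 5 in Cd8 cells and 3 in Cd4 cells. The difference in depth between the subsets was not removed from these counts.

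Nkg7 was at 1182 CPM in Cd8 cells and 99.0 in Cd4 cells, an 11.9-fold difference (7.35 to 20.7), and was detected in 32 of 33 and 6 of 24 cells. Prf1 gave 77 UMIs in 17 Cd8 cells and 0 in the 24 Cd4 cells. Against a floor of 3 counts summed over the Cd4 cells, or 17.5 CPM, the ratio for Prf1 was 14.3, with a lower 95% bound of 11.3 from the 0 counts themselves. Gzmb was at 418 against 93.2 CPM (4.48-fold, 2.66 to 8.07). These intervals cover counting error of the summed UMIs and not the spread between cells. For Gzmb, 54 of the 129 UMIs in Cd8 cells came from 1 cell, and the 16 UMIs in Cd4 cells came from 2 cells. Ifng gave 31 UMIs in 8 Cd8 cells and 2 UMIs in 2 Cd4 cells, but 22 of the 31 came from 1 cell. Gzma gave 4 and 2 UMIs and could not be compared at this depth. Thinned to 2000 UMIs per cell, Nkg7 was found in 87.9% of Cd8 and 20.8% of Cd4 cells (71.8 to 96.6% and 7.13 to 42.2%), Gzmb in 10 of 33 and 2 of 24 cells, and Prf1 in 5 of 33 and 0 of 24 cells, the intervals of Gzmb and Prf1 then overlapping.

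The receptors split in 3 ways. Ctla4 was lower in Cd8 than in Cd4 cells, at 356 against 1188 CPM (0.300-fold, 0.235 to 0.380), although it was detected in 28 of 33 and 23 of 24 cells. Its positive Cd8 cells had a median of 3 UMIs and a highest value of 17, against 7 and 25 in the Cd4 cells. Havcr2 was higher in Cd8 cells, at 171.6 against 52.4 CPM (3.27-fold, 1.60 to 7.55), but with cells thinned to 2000 UMIs it was found in 5 of 33 Cd8 and 3 of 24 Cd4 cells, which is 15.2% and 12.5%. Ctla4 was then in 21 of 33 and 20 of 24 cells. Pdcd1 was at 214 and 216 CPM, with a ratio of 0.991 (0.653 to 1.53). Lag3 had a ratio of 1.07 (0.509 to 2.35) and Tigit one of 0.834 (0.313 to 2.35), so that a difference of 2-fold in either direction lies within the counting error for both. Pdcd1, Havcr2 and Lag3 were detected together in 12 gate cells, 10 with a Cd8 and 2 with a Cd4 UMI. Among the 10 Cd8 cells, 9 also had Gzmb, 9 had Prf1 and 10 had Nkg7, and among the 2 Cd4 cells none had Gzmb or Prf1.

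**Figure D2:**
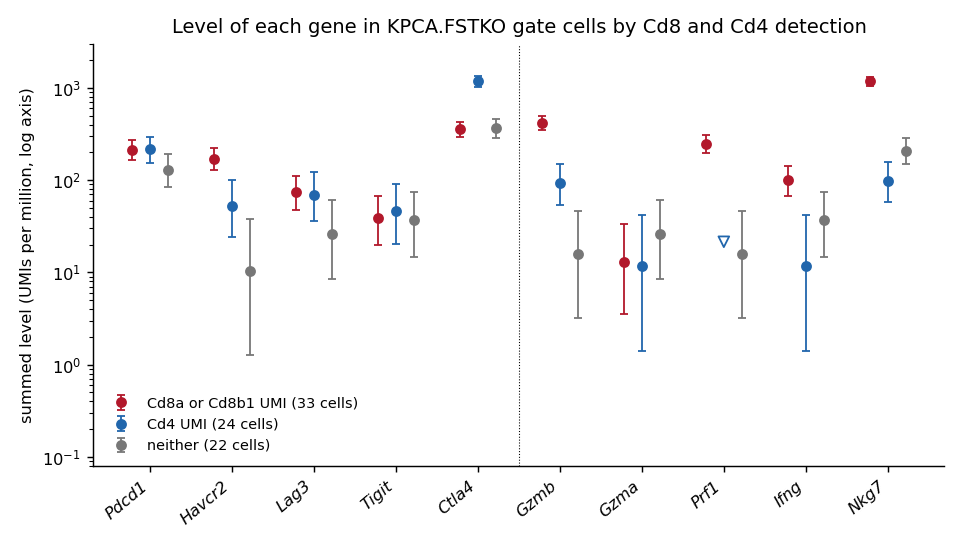
Summed level of each gene (CPM, log axis) in KPCA.FSTKO gate cells with a Cd8a or Cd8b1 UMI (33 cells), a Cd4 UMI (24 cells) or neither (22 cells), with 95% Poisson intervals as bars. The open triangle marks the upper bound for Prf1, which had 0 UMIs in the Cd4 cells. Nkg7, Prf1 and Gzmb are highest in Cd8 cells, Ctla4 is highest in Cd4 cells, and the Cd8 and Cd4 intervals of Pdcd1, Lag3 and Tigit overlap.

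The 4 cells with 8 or 9 of the genes are given as examples. They were picked by the number of genes detected, so finding many of the genes together in them follows from that choice. The first had 9 genes in 18981 UMIs, with 78 UMIs of Nkg7, 22 of Ifng, 11 of Havcr2, 8 of Gzmb and 3 of Prf1, and 16 UMIs of Cd8a and Cd8b1. The second had 16 UMIs of Pdcd1 and 39 of Nkg7. The third had 54 UMIs of Gzmb beside 8 of Prf1 and 5 of Havcr2. The fourth had 10 UMIs of Nkg7, 5 of Ctla4 and 4 of Havcr2. None of the 4 had a UMI of Gzma or Cd4. Their depths ran from 9667 to 18981 UMIs, all above the KPCA.FSTKO gate median of 4930.

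Foxp3, the transcription factor of regulatory T cells, was detected in 8 gate cells, 6 of them with a Cd4 UMI and none with a Cd8 UMI. Every one of the 8 had Ctla4, with 121 UMIs in all, or 2587 CPM. Pdcd1 was found in 6 of them, and Havcr2 in 1. Gzmb was found in 3 of the 8 cells, with 11, 5 and 3 UMIs, and without a UMI of Prf1 or Nkg7 in any of the 3. The remaining 17 of the 20 Gzmb-positive gate cells had a Cd8 UMI, so that each Gzmb-positive cell had either a Cd8 or a Foxp3 transcript. Prf1 and Ifng had 0 UMIs in the 8 Foxp3 cells, which allows a share of up to 36.9%. This split was made after the values were seen.

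Tcf7, which encodes the transcription factor TCF-1 of naive, memory and stem-like T cells, was detected in 19 gate cells at a median depth of 4380 UMIs, against 5142.5 in the 60 others. None of the 19 had a UMI of Havcr2 or Gzmb, which allows up to 15.8% of cells with a UMI for each by a count of 3 and up to 17.6% by the exact interval, while 22 of the 60 others had Havcr2 (36.7%, 24.6 to 50.1%) and 20 had Gzmb (33.3%, 21.7 to 46.7%). Pdcd1 was found in 5 of 19 Tcf7-positive cells (26.3%, 9.15 to 51.2%) and 41 of 60 others (68.3%, 55.0 to 79.7%). Nkg7 and Tigit were found at like shares on both sides. Nkg7 was in 11 of 19 (57.9%) against 38 of 60 (63.3%), and Tigit in 5 of 19 (26.3%) against 13 of 60 (21.7%). Prf1 was in 4 of 19 (21.1%) against 16 of 60 (26.7%), and Ifng in 3 (15.8%) against 11 (18.3%). Lag3 was in 4 of 19 against 20 of 60, Gzma in 1 against 3 and Ctla4 in 10 against 50. Of the 19 Tcf7-positive cells, 5 had a Cd8 UMI and 5 a Cd4 UMI, whereas Gzmb was in 17 of the 33 Cd8 cells and Havcr2 in 15. The part of this make-up in the differences was not tested. The Tcf7 comparison, too, was chosen after the values were seen.

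Lists of related genes were read against the same 9.03% of all genes, naming the 4 genes of each with most UMIs in the gate. Of 16 other checkpoint and costimulation genes, 14 were at least 4 times higher in the gate, with a median ratio of 250 over the list. Those with most UMIs were Tnfrsf9, the costimulatory receptor 4-1BB (250 UMIs in 41 cells), Tnfrsf4, the costimulatory receptor OX40 (203 UMIs in 38 cells), Tnfrsf18, which encodes GITR (161 UMIs in 44 cells), and Cd226, the activating partner of Tigit (157 UMIs in 47 cells). OX40 and GITR transcripts were each in 19 of the 24 Cd4 cells, and in 15 and 16 of the 33 Cd8 cells. The Cd4 cells held 70 UMIs of each and the Cd8 cells 117 and 72, out of 171683 and 308906 UMIs in all. Vsir and Lair1 did not reach the fold, at 2.28-fold and 0.757-fold. Cd160, chosen after its values were seen, gave 42 UMIs in 24 cells, 18 of them Cd8 cells and none a Cd4 cell.

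Of 21 other effector genes tested, 16 reached the fold, with a median ratio of 207. The T cell chemokine gene Ccl5 gave 941 UMIs in 54 cells (95.9-fold), the chemokine gene Ccl4 gave 368 UMIs in 10 cells (38.6-fold) and Ccl3 gave 219 UMIs in 11 cells (24.4-fold). Srgn, the gene for the granule proteoglycan serglycin, gave 886 UMIs in 76 cells but was only 2.73-fold higher than in the other cells. Ccl3 and Ccl4 were each found in 9 Cd8 cells and 1 Cd4 cell. Gzmm had 0 UMIs in the gate, and Gzmm, Tnf, Srgn, Lamp1 and Il2 did not reach the fold. Gzmc, chosen after its values were seen, gave 212 UMIs in 12 cells, and whether any of its reads were shared with related granzyme genes was not tested.

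Among 15 transcription factors of T cells 11 reached the fold, with a median ratio of 6.34. Ikzf2, the gene for Helios, gave 301 UMIs in 43 cells (14.9-fold) and Tox, whose product is linked to lasting checkpoint expression, gave 279 UMIs in 58 cells (66.1-fold), 28 of them Cd8 and 19 Cd4 cells. Id2 gave 265 UMIs in 53 cells (3.67-fold) and Nr4a2, an early response gene of receptor signaling, gave 100 UMIs in 29 cells (5.05-fold). Nr4a1, Id2, Id3 and Bcl6 did not reach the fold. Of 12 lineage and activation genes 9 did, and Cd44, Mki67 and Top2a did not, at 0.644-fold, 1.88-fold and 1.07-fold. Those with most UMIs were Il7r, the interleukin-7 receptor gene (251 UMIs in 55 cells), Trbc1 (228 in 34), Cd44 (167 in 53) and Cd8b1 (133 in 31).

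Havcr2 had the smallest share of its UMIs in the gate among the 10 genes, and its level differed widely between the other named classes. In descending order its level was 132 CPM in dendritic-like cells (107 to 162, 90 cells), 95.2 in the gate (73.3 to 122), 65.7 in monocyte/macrophage-like cells (61.5 to 70.2, 997 cells), 36.5 in neutrophil-like cells (20.4 to 60.3, 149 cells) and 22.5 in cancer-like cells (21.7 to 23.4, 3975 cells). The intervals of the dendritic-like cells and the gate overlapped, as did those of the neutrophil-like and cancer-like cells. The dendritic-like cluster was led by the immunoglobulin genes Igkc and Ighm beside dendritic cell genes such as Flt3 and Ccl17, so that it is not a pure class. Only 4 of the 16 dendritic markers used for naming were raised in it. Clustering at a lower resolution, or of KPCA.FSTKO alone, gave no dendritic-like cluster. Stromal-like (2.65), pericyte-like (2.86), erythroid-like (3.22) and endothelial-like cells (4.22) lay low, with overlapping intervals. Cells of the unnamed cluster were at 5.53 CPM, the 39 cells of mixed clusters at 29.3 (14.1 to 53.9), and the 19 T-like cells outside the gate had no Havcr2 UMI, with an upper bound of 56.8. In all, 4.32% of the stromal-like cells (median depth 16376 UMIs) had a Havcr2 UMI, against 42.5% of monocyte/macrophage-like cells (12444) and 32.3% of cancer-like cells (27028). Thinned to 1000 UMIs per cell, these shares were 0.234% in stromal-like, 5.94% in monocyte/macrophage-like and 1.98% in cancer-like cells. TIM-3 is also a known product of dendritic cells, macrophages and mast cells. Outside the gate, 24 cells had 3 or more UMIs of mast cell and basophil genes. They held 35 of the 3590 Havcr2 UMIs outside the gate, in 7 cells. The source of the Havcr2 UMIs outside the gate was not tested.

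**Figure D3:**
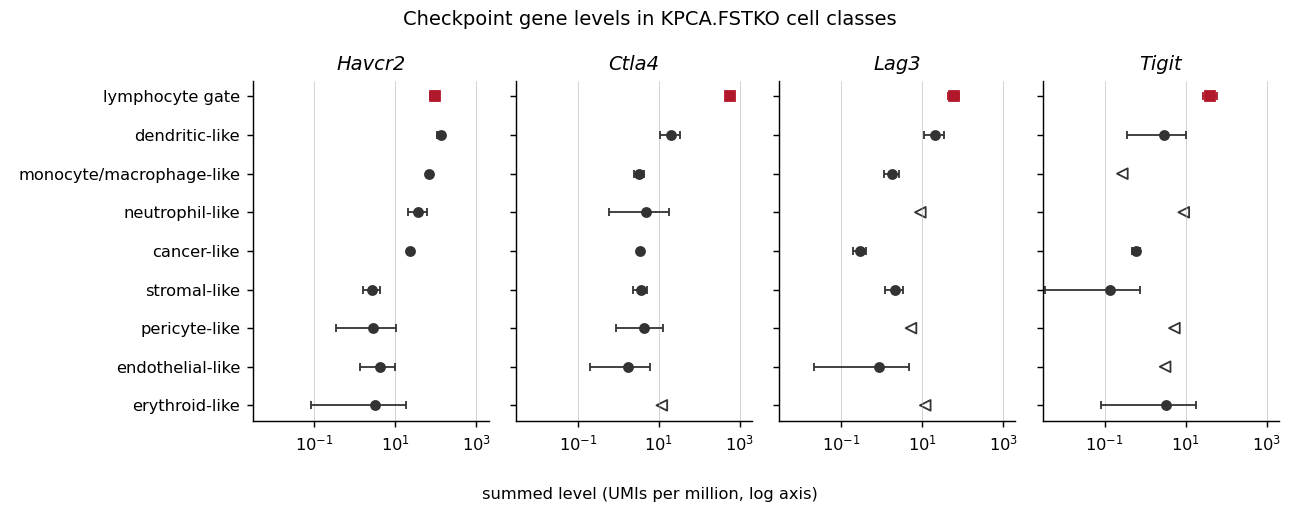
Summed level (CPM, log axis) of 4 receptor genes in the lymphocyte gate (squares) and in the other classes of KPCA.FSTKO (circles), with 95% Poisson intervals as bars. Open triangles are upper bounds for classes with 0 UMIs. Havcr2 in dendritic-like and monocyte/macrophage-like cells lies near its level in the gate, and in these plotted classes the Ctla4, Lag3 and Tigit points are highest in the gate. T-like cells outside the gate, where Ctla4 was at 923 CPM, are not plotted.

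The cancer-like cells, 3975 in number, held 2537 of the Havcr2 UMIs, or 69.4% of the library's, in 1282 cells. Of these, 569 had 2 or more UMIs and the highest value was 14. Genes of macrophages were read in the same cells for comparison. The level of Havcr2 in cancer-like cells was 34.3% (31.7 to 37.0%) of that in monocyte/macrophage-like cells, while the macrophage genes C1qa, C1qb, C1qc, Adgre1 and Csf1r were at 0.281 to 0.455%, Lyz2 at 0.307%, Tyrobp at 0.385% and Ptprc at 0.257%. In the 2307 cancer-like cells without any UMI of those 5 macrophage genes, Havcr2 was at 23.8 CPM (22.7 to 25.1). It was present in all 5 cancer-like clusters, from 19.01 (17.4 to 20.7) to 37.3 (32.0 to 43.4) CPM, the highest value being in the cluster of least depth (median 6134 UMIs). In KPCA.FSTKO_hFSTL3, the 210 cancer-like cells gave 17.0 CPM (14.4 to 19.9), 25.1% (20.2 to 31.1%) of the monocyte/macrophage-like level there. Exons cover 10.3% of the Havcr2 gene model and 8.08% of that of Ctla4, and whether reads in introns were counted could not be settled from the sources, so the part of the gene that these molecules came from was not tested, and no protein was measured.

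**Figure D4:**
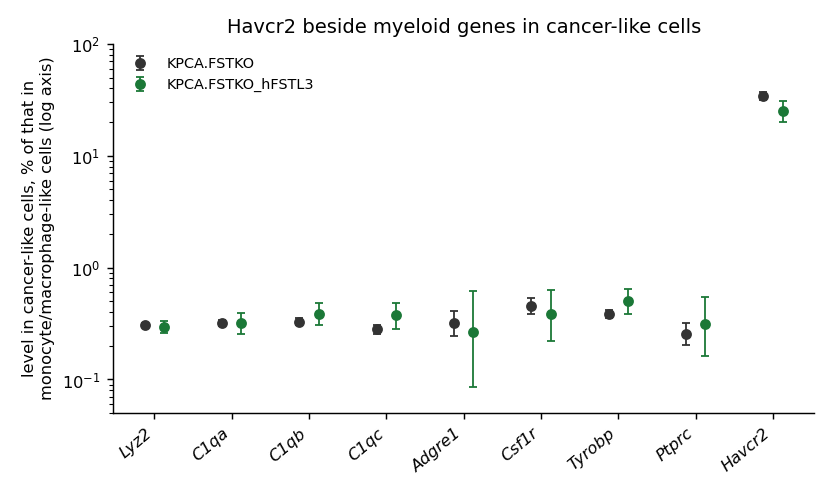
Level in cancer-like cells as a percentage of the level in monocyte/macrophage-like cells (log axis) for 8 genes of macrophages or leukocytes and for Havcr2, in both libraries, with 95% intervals of the ratio as bars. The myeloid genes lie between 0.257 and 0.502%, and Havcr2 lies at 34.3% in KPCA.FSTKO and 25.1% in KPCA.FSTKO_hFSTL3.

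Ctla4 had a low level in classes other than T cells. It was at 3.53 CPM in cancer-like cells (3.19 to 3.89), 3.27 in monocyte/macrophage-like cells (2.38 to 4.39) and 3.57 in stromal-like cells (2.35 to 5.20), and these intervals overlapped. Cells of the unnamed cluster were higher, at 7.46 CPM (5.07 to 10.6), and the cancer-like clusters ran from 1.74 (0.750 to 3.42) to 4.49 (3.74 to 5.35). In the cancer-like cells 397 UMIs were spread over 356 cells, with at most 3 in a cell. The T cell receptor genes of the gate gave only 48 UMIs there, and leaving out the cells that held them gave a Ctla4 level of 3.54. By comparison, 384 Ctla4 UMIs in the gate went with 1404 UMIs of those 5 genes. The source of this signal, introns included, was not tested. In dendritic-like cells Ctla4 was at 20.1 CPM (10.99 to 33.7), where the T cell receptor genes gave 12 UMIs in 4 cells.

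Lag3 and Tigit had more UMIs outside the gate than inside (91 against 40 and 71 against 27), at lower levels and spread over many cells. Lag3 was at 20.1 CPM in dendritic-like cells (10.99 to 33.7, 11 of 90 cells), 2.12 in stromal-like cells (1.21 to 3.44), 1.78 in monocyte/macrophage-like cells (1.14 to 2.65) and 0.284 in cancer-like cells (0.194 to 0.401). LAG-3 is known on plasmacytoid dendritic cells. Of the 3 cells with plasmacytoid genes, 2 had a Lag3 UMI, and the 3 cells held 2 of the 91 UMIs outside the gate. The source of the Lag3 UMIs outside the gate was not tested. Tigit gave 67 UMIs in 65 cancer-like cells (0.595 CPM, 0.461 to 0.756) and 0 in the 997 monocyte/macrophage-like cells, which allows up to 0.369% of cells. Of these 65 cells, 63 had a single UMI.

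The few effector gene UMIs outside the gate lay in a small number of barcodes. Of 21 Gzmb UMIs outside, 18 were in 1 cell of the dendritic-like cluster that also had 36 UMIs of Cpa3, 10 of Kit and 4 of Mcpt8, genes of mast cells and basophils, and no T cell receptor UMI. Another was in a cell with 63 UMIs of Cpa3, and the last 2 in a cell with NK genes. Prf1 had 6 UMIs outside in 4 cells, 4 of them in 2 cells of the T-like cluster with Klrb1c UMIs. Of the 49 Nkg7 UMIs outside the gate, 39 lay in the 19 cells of the T-like cluster that missed the gate. The 5 cells with 3 or more UMIs of the NK genes Ncr1, Klrb1c and Klre1 held 34 UMIs of Nkg7 in 4 cells, 11 of Pdcd1 in 2 cells and 4 of Prf1 in 2 cells.

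The KPCA.FSTKO_hFSTL3 library gave 20 gate cells, 0.495% of its cells (0.303 to 0.763%), at a median of 9224 UMIs. Only 13 of them fell in the T-like cluster, 5 fell in the mixed clusters and 2 in the dendritic-like one. At least 1 of the 10 genes was found in 15 of the 20 cells (75.0%, 50.9 to 91.3%), and the most in 1 cell was 5. Ctla4 gave 139 UMIs in 11 cells, 60 of them in a single cell, and Pdcd1 gave 9 UMIs in 4 cells. Havcr2 gave 6 UMIs in 5 cells, Tigit 6 in 4 cells and Lag3 2 in 2 cells. Of the effector genes, Nkg7 gave 31 UMIs in 7 cells, Gzmb gave 1 UMI and Ifng gave 2. Prf1 gave 0, which allows a share of up to 16.8%. Gzma gave 61 UMIs in 2 cells, 59 of them in a cell that had 13 UMIs of Nkg7 and none of Cd4, Cd8a or Cd8b1. Of the 20 cells, 1 had a Cd8 UMI, 7 had a Cd4 UMI and 7 had a Foxp3 UMI, the last with 130 of the 139 Ctla4 UMIs.

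Side by side, Pdcd1 was found in 46 of 79 gate cells of KPCA.FSTKO and in 4 of 20 of KPCA.FSTKO_hFSTL3, Prf1 in 20 and 0, Nkg7 in 49 and 7, Ctla4 in 60 and 11, and Havcr2 in 22 and 5. With cells thinned to 2000 UMIs, Pdcd1 was in 29 of 79 (36.7%, 26.1 to 48.3%) and 2 of 20 gate cells (1.23 to 31.7%). Whether the genotypes differ was not tested, since the pooled tumors gave 1 library each, and the make-up of the gate by Cd8, Cd4 and cluster moved with the genotype. Outside the gate, 508 of 4021 KPCA.FSTKO_hFSTL3 cells had a T cell receptor gene UMI, against 75 of 6698 in KPCA.FSTKO. The mixed cells of that library also held 103 UMIs of Gzma and 132 of Nkg7, while the 210 cancer-like and 167 monocyte/macrophage-like cells had 0 of either.

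**Figure D5:**
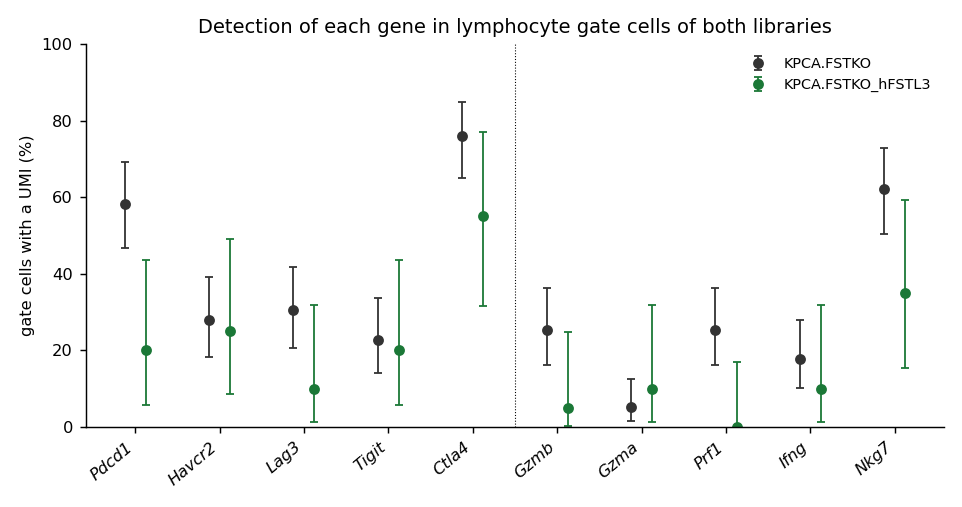
Share of gate cells with a UMI (%) for each gene in KPCA.FSTKO (79 cells) and KPCA.FSTKO_hFSTL3 (20 cells), with exact 95% binomial intervals as bars and 1 library per genotype. Pdcd1 was found in 46 of 79 and 4 of 20 cells and Prf1 in 20 of 79 and 0 of 20, and the bars cover counting error within each library only.

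Across the 16 KPCA.FSTKO clusters with 20 or more cells, the gene whose level on the log2(CPM + 1) scale followed each of the 10 most closely was found among 14329 genes with 100 or more UMIs. For Pdcd1 it was Cd8a (Pearson r = 0.999), for Gzmb Cd8b1 (0.9995), for Nkg7 Cd3g (0.998), for Prf1 Trbc1 (0.979), for Lag3 the T cell adhesion gene Cd2 (0.978) and for Ctla4 Trac (0.936). For Tigit it was Gzmc (0.924). Havcr2 stood apart, with the adaptor gene Fyb (0.927), which T and myeloid cells share, ahead of Tnip3 and Coro2a. These values describe 16 clusters of 1 library, in which 1 cluster holds nearly all of the T cells and decides most of the fit.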

How the data were processed

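Single cells of pooled omental tumors were sequenced with droplet-based 3′ chemistry, 1 library per genotype. The deposited matrices hold raw UMI counts per gene and barcode, which the authors made with Cell Ranger on mouse build mm10, without normalization. The submitters' processing notes name Cell Ranger 3.1.0 and the matrix headers name 7.2.0, a difference that bears on whether reads in introns were counted. The matrices hold 7582 and 4244 barcodes, which are the cell numbers the study gives after its quality control, and its filters (mitochondrial share under 20%, more than 200 and fewer than 8000 genes) left 6777 and 4041. The labels' genotype field holds a molecule type, so groups were taken from the titles. Some items of the line and of the gene lists are not reported here.

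Counts were summed over cells and divided by the summed UMIs (CPM). The lymphocyte gate asked for 3 UMIs of 5 T cell receptor genes and 1 of Ptprc. Other classes came from clusters of both libraries merged (Seurat 5.3.0 in R 4.3.3, 2000 variable genes without the 10 genes described, 10 principal components, 20 neighbors, resolution 0.8), called X-like from marker lists. Because names were rebuilt, a difference from the study may come from them. Scrublet (scanpy 1.11.5) called 90 KPCA.FSTKO cells doublets, which were kept and left out in an alternative. It called 1 cell in KPCA.FSTKO_hFSTL3 and so did not work there. Intervals are exact Poisson, Clopper-Pearson or conditional binomial (scipy 1.17.1) at 95%. PCR is covered by UMIs, and intervals and floors of 3 counts cover counting error only. With 1 library per genotype no test was made and no p-value is given. Scripts were tested on simulated data.

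Genes were tested for the 4-fold difference where they had 10 or more UMIs in the library. TMM factors (edgeR 4.0.16) were used only as another scaling. Named genes were the 10 genes, the gate genes, for each of the 10 the 3 genes most like it over clusters, pairs by their number of shared cells, and in each related list the 4 with most UMIs in the gate. The 10 genes and all lists were chosen with earlier results of these data known. Loci are from GENCODE vM21 on GRCm38, and promoters from RefSeq on GRCm38.p6, where 9 of the 10 genes were matched.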

Additional observations from a re-analysis of the deposited data

How the results depend on the processing

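Of the values that answer a comparison, 65 recomputed under an alternative stayed close to the reported value and 9 moved beyond their counting interval, and of the values for single genes 399 stayed and 34 moved. None of these changed direction, but when gate cells were thinned to 2000 UMIs the difference turned for 13 of the 45 pairs of genes. The share of the library's UMIs of the 10 genes in the gate, 23.2%, was 20.5% without the barcode filter, 21.8% with gate cells of the T-like cluster alone and 21.4% without the gate cell with most of these UMIs. The share of gate cells with 2 or more genes, 81.0%, was 67.1% with cells thinned to 2000 UMIs and 39.2% at 1000 UMIs, and the share with any gene, 92.4%, was 69.6% at 1000 UMIs. In KPCA.FSTKO_hFSTL3 the share with any gene, 75.0%, was 50% at 2000 UMIs. Havcr2 in cancer-like cells, 22.5 CPM, was 23.97 with KPCA.FSTKO clustered alone and 23.8 without cells with a macrophage gene UMI. Thinning lowers these shares by construction. For Havcr2 the 4-fold call turned on the gate: all 10 genes passed with a gate of 5 T cell receptor UMIs, with gate cells of the T-like cluster alone, or at a fold of 2. TMM scaling shifted log2 ratios by -0.18 and left 9 genes past the fold. The alternatives on thinned subsets and pairs, doublets left out of the subsets, T-like gate cells in the subsets, macrophage genes, and the share without Ctla4 and Havcr2 (86.1%) were chosen after seeing the data. Leaving out doublets was not run for KPCA.FSTKO_hFSTL3, where Scrublet did not work. No paired analysis was possible because each genotype has 1 library and no test was made. Depth limits what a cell with 0 UMIs can show, most of all for Gzma, Tigit and Ifng, and in the 20 gate cells of KPCA.FSTKO_hFSTL3.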

Other observations

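The T-like cluster held 19 KPCA.FSTKO cells that missed the gate, at a median of 2775 UMIs. They carried 60 Ctla4 UMIs in 8 cells (923 CPM, 705 to 1189), 39 UMIs of Nkg7 and 19 of Pdcd1. Havcr2 and Tigit were at 0, which allows a share of up to 17.6% of these cells.

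The 22 cells outside the gate with 3 or more UMIs of B and plasma cell genes had a median of 2756.5 UMIs. They held 7 Ctla4 UMIs in 4 cells, 2 Lag3 UMIs in 1 cell, 1 Pdcd1 UMI and 1 Prf1 UMI, and none of Havcr2, Tigit, Gzmb, Gzma, Ifng or Nkg7.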
